A study of Homo sapiens with 4 samples.

Results

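Translation elongation is carried out by a small set of GTPases and their helpers, and 4 of their mRNAs are described here: EEF1A1, EEF1B2, EEF1D and EEF2. They were taken by name from a table of 19948 gene symbols, all 4 were in it, and all 4 passed a minimum of 30 counts summed over the libraries, as did 7527 genes in total. The cells were HEK293T, a human embryonic kidney line that carries the SV40 large T antigen. The labels name no genetic change or mTOR inhibitor for them, and every sample had been given cycloheximide at 100 ug/mL for 10 min, a drug that stalls ribosomes on their mRNAs. The lysate was run on a sucrose gradient from 10% to 50%, and RNA was collected as a free pool, a monosome pool, a light polysome pool and a heavy polysome pool, 1 library for each. Capped RNA with a poly(A) tail was then read as RNA on nanopores. The series title names mTOR and LARP1, and the pools show where each mRNA sat in the gradient. With 1 library per pool there is no spread between replicates and no p-value. Every interval below is a 95% counting interval, and the RNA mass of the pools was not given, so every level is a share of its library.

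In each round of elongation eEF1A, the product of EEF1A1, brings an aminoacyl-tRNA to the ribosome with GTP bound, and it leaves with GDP. The eEF1B complex reloads it with GTP: EEF1B2 and EEF1D both code for subunits with nucleotide exchange activity, and EEF1G codes for a structural subunit that holds them. EEF2 codes for eEF2, the GTPase that moves the ribosome along by a codon, which the kinase EEF2K inhibits and which carries the modified histidine called diphthamide. Elongation factor mRNAs belong with the ribosomal protein mRNAs to the TOP class, whose members start with a C followed by a run of pyrimidines, and whose translation falls when mTOR is inhibited. LARP1 binds the cap and the pyrimidines of such mRNAs.

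The first bases of EEF1A1, EEF1B2 and EEF2 are shown because such bases define the class. No RefSeq start was at hand for EEF1D, so its start was not checked. Each line has 10 bases before the RefSeq start site and 20 from the start site onward, 5′ to 3′ on the gene's strand, and capitals mark the unbroken run of C and T that begins at the start site. The build is GRCh38.p14. EEF1A1 is on the minus strand at chr6:73521013-73521042, the EEF1B2 starts are on the plus strand at chr2:206159599-206159628 and chr2:206159885-206159914, and EEF2 is on the minus strand at chr19:3985444-3985473. TUFM, which codes for the mitochondrial counterpart of eEF1A, is on the minus strand at chr16:28846329-28846358 and is shown for contrast.
EEF1A1: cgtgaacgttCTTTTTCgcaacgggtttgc
EEF1B2, upstream start: aagtggccccagcctcgaggccgggcgtct
EEF1B2, downstream start: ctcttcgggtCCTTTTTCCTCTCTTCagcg
EEF2: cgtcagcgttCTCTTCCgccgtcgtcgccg
TUFM: cgccggaagtgccttccagccgcaggcgcc

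The EEF1A1 and EEF2 starts opened with 7 pyrimidines each and the downstream EEF1B2 start with 16. The upstream EEF1B2 start and the TUFM start opened with a purine. A C at the start site followed by at least 4 pyrimidines was found at 1429 of the 35116 RefSeq starts of the same window length, or 4.07%. Only the gene's strand, with the sequence of the mRNA, was searched because the motif is read from the cap. The count table gives no 5′ ends, so which EEF1B2 start these cells used was not measured.

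Library totals were 355509 counts in the free, 1329334 in the monosome, 1499401 in the light polysome and 1564531 in the heavy polysome library. The free library was the shallowest, where 1 count is 2.81 CPM (counts divided by the library total and scaled alike in all libraries) against 0.639 to 0.752 CPM in the others. Ribosomal protein genes took 64.9% of the free, 54.7% of the monosome, 31.5% of the light polysome and 19.1% of the heavy polysome counts. The cell type check was weak: KRT18 and VIM had counts in every library and KRT8 in 3 of them, while the blood and liver genes PTPRC, HBB, CD3E, ALB and APOA1 had at most 4 counts in any.

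The members had separate profiles along the gradient. EEF1A1 and EEF1B2 had their highest share in the monosome library, EEF2 in the light polysome library and EEF1D in the heavy polysome library. Only the EEF1A1 peak held when libraries were scaled by TMM (edgeR) or size factors (DESeq2). EEF1B2 and EEF1D were then highest in the free library. With TMM, EEF1B2 in monosome against free had a log2 ratio of -0.40 (-0.54 to -0.27). EEF1D in heavy polysome against free had -0.73 (-1.09 to -0.33). EEF2 was then highest in the monosome library, with -0.40 for light polysome against monosome. Together the 4 mRNAs took 0.370% of the free library (interval 0.351 to 0.391), 1.74% of the monosome library (1.72 to 1.77), 0.898% of the light polysome library (0.883 to 0.914) and 1.08% of the heavy polysome library (1.06 to 1.09). EEF1A1 supplied 51.3% of these reads in the free library and between 71.1% and 79.9% in the other libraries.

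EEF1A1 (ENSG00000156508.17, chromosome 6, 73515750 to 73523797, hg38) codes for the tRNA-delivering GTPase and has a coding sequence of 1386 nucleotides. It had 676 counts in the free library, 18499 in the monosome, 9575 in the light polysome and 12347 in the heavy polysome library. These are 1901 CPM (1761 to 2050), 13916 CPM (13716 to 14118), 6386 CPM (6259 to 6515) and 7892 CPM (7753 to 8032). The order by CPM was monosome, heavy polysome, light polysome and free, and no pair of intervals overlapped. With TMM, EEF1A1 instead stood higher in free than in light polysome (log2 ratio -0.28, -0.40 to -0.17) and heavy polysome (-0.51, -0.62 to -0.39). By read count, not scaled for length, it ranked 74 in the free library, 8 in the monosome, 18 in the light polysome and 2 in the heavy polysome library.

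EEF1B2 (ENSG00000114942.13, chromosome 2, 206159585 to 206162928) codes for an exchange subunit and has the shortest coding sequence of EEF1A1, EEF1B2 and EEF2, with 675 nucleotides. It had 535, 3099, 1359 and 1710 counts from free to heavy polysome. Its levels were 1505 CPM (1380 to 1638), 2331 CPM (2250 to 2415), 906 CPM (859 to 956) and 1093 CPM (1042 to 1146). It was the only member with more CPM in the free library than in either polysome library, and none of its intervals overlapped. With ribosomal protein reads left out of the totals, its heavy and light polysome levels no longer differed beyond counting error (log2 ratio 0.03, -0.07 to 0.13). Of its CPM summed over the 4 libraries, 25.8% lay in the free library, against 14.4% for EEF1D, 6.32% for EEF1A1 and 3.18% for EEF2.

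EEF2 (ENSG00000167658.15, chromosome 19, 3976056 to 3985469) codes for the translocase and has a coding sequence of 2574 nucleotides. It had 42, 1293, 2208 and 1806 counts from free to heavy polysome. These are 118 CPM (85.1 to 160), 973 CPM (920 to 1027), 1473 CPM (1412 to 1535) and 1154 CPM (1102 to 1209). The light polysome level was the highest and the free level the lowest, with no overlap of intervals, and the free value rests on 42 reads. The light polysome peak was not seen with ribosomal protein reads left out of the totals, where EEF2 stood at 2146 CPM in the monosome and 2150 CPM in the light polysome library, a log2 ratio of 0.00 (-0.10 to 0.10).

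**Figure D1:**
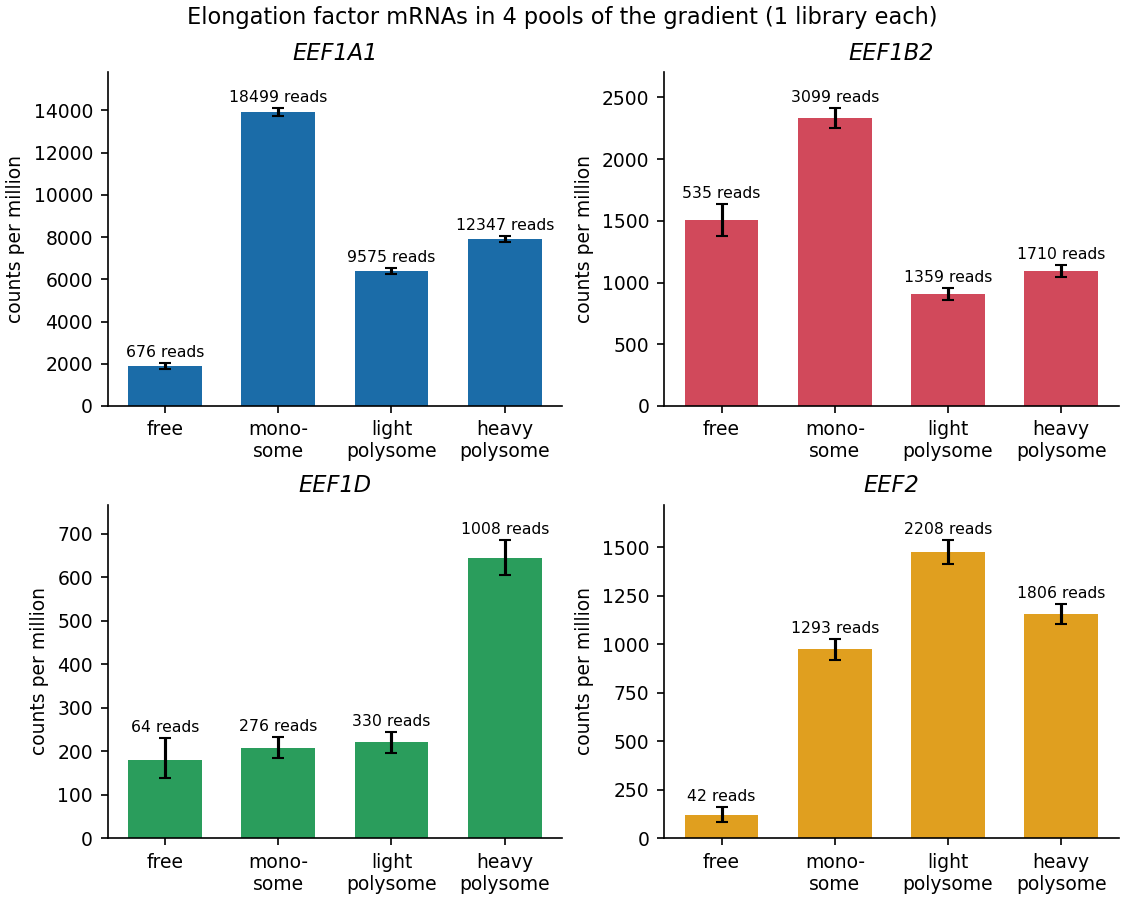
Level of each member in CPM (y axis, from 0) in the 4 libraries (x axis, 1 library per pool), with the read count above each bar and error bars for the 95% exact Poisson counting interval. EEF1A1 and EEF1B2 are highest in the monosome library at 13916 and 2331 CPM, EEF2 in the light polysome library at 1473 CPM and EEF1D in the heavy polysome library at 644 CPM.

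EEF1D (ENSG00000104529.17, chromosome 8, 143579697 to 143599541) codes for the other exchange subunit. Its annotated isoforms differ widely, with coding sequences from 297 to 2091 nucleotides in 13 transcripts, and the gene counts do not separate them. It had 64, 276, 330 and 1008 counts from free to heavy polysome. Its levels were 180.0 CPM (139 to 230), 208 CPM (184 to 234), 220.1 CPM (197 to 245) and 644 CPM (605 to 685). The intervals of the free, monosome and light polysome libraries overlapped one another, and the heavy polysome level stood above all of them. Without ribosomal protein reads in the totals the light polysome level was below the free one (log2 ratio -0.68, -1.06 to -0.26). Of its summed CPM, 51.5% lay in the heavy polysome library.

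Members can be compared with no scaling at all through the ratio of their reads within a library. Each gene's own length cancels when that ratio is followed between libraries, provided its isoforms and their capture are alike in them. Whether they were was not measured. The 6 pairs of members were followed over the 6 pairs of libraries, and 32 of the 36 changes had an interval that left out 1. These intervals cover counting error only and are not adjusted for their number. The comparisons reuse the same 4 libraries and are not independent.

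The 2 exchange subunits separated along the polysomes. There were 8.36 EEF1B2 reads per EEF1D read in the free library (6.44 to 11.0), 11.2 in the monosome (9.92 to 12.7), 4.12 in the light polysome (3.65 to 4.66) and 1.70 in the heavy polysomes (1.57 to 1.84). From monosome to heavy polysome the ratio changed to 0.151 of its value (0.130 to 0.175), and from light to heavy polysome to 0.412 (0.356 to 0.476). From free to monosome it changed by a factor of 1.34, with an interval of 0.991 to 1.80 that included 1.

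EEF1A1 and EEF1B2 parted mainly between the free library and the rest. There were 1.26 EEF1A1 reads per EEF1B2 read in the free library (1.13 to 1.42), then 5.97 in the monosome (5.75 to 6.20), 7.05 in the light polysome (6.66 to 7.46) and 7.22 in the heavy polysomes (6.86 to 7.60). The rise from free to monosome was 4.72-fold (4.18 to 5.33). Smaller rises followed from monosome to light polysome, 1.18-fold (1.10 to 1.26), and from monosome to heavy polysome, 1.21-fold (1.13 to 1.29). Between light and heavy polysomes the ratio changed 1.02-fold, with an interval of 0.949 to 1.11 that included 1.

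The translocase and the tRNA carrier parted beyond the monosome. EEF1A1 had 16.1 reads per EEF2 read in the free library (11.8 to 22.5) and 14.3 in the monosome library (13.5 to 15.1), a change of 0.889 with an interval of 0.632 to 1.22. In the light polysomes the ratio was 4.34 (4.14 to 4.54) and in the heavy polysomes 6.84 (6.51 to 7.19). The step from monosome to light polysome was 0.303 (0.282 to 0.326), and the step from light to heavy polysome went the other way at 1.58 (1.47 to 1.69).

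The largest change of any pair was between EEF1B2 and EEF2. Their ratio was 12.7 in the free library (9.30 to 17.9), 2.40 in the monosome (2.25 to 2.56), 0.615 in the light polysome (0.575 to 0.659) and 0.947 in the heavy polysomes (0.886 to 1.01). The light polysome ratio was 0.0483 of the free one (0.0342 to 0.0668). EEF1D per EEF2 fell from 1.52 in the free library (1.02 to 2.31) to 0.149 in the light polysomes (0.133 to 0.168) and stood at 0.558 in the heavy polysomes (0.516 to 0.603), a 3.73-fold step between the polysome libraries (3.24 to 4.30). EEF1A1 per EEF1D was 10.6 in the free library (8.17 to 13.9), 67.0 in the monosome (59.5 to 75.8) and 12.2 in the heavy polysomes (11.5 to 13.1), and its free and heavy values did not differ beyond counting error (change 1.16, 0.876 to 1.51).

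**Figure D2:**
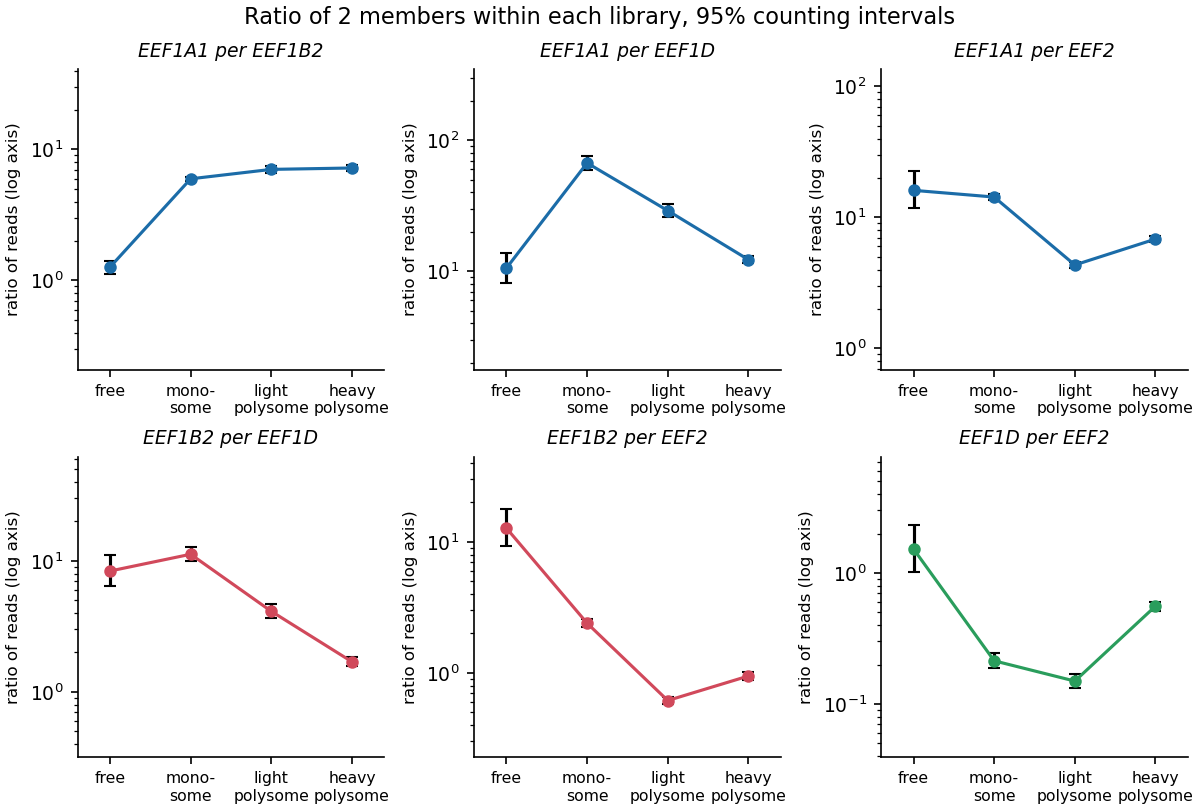
Ratio of the reads of 2 members within each library (y axis, log scale, the same span in every panel) for the 6 pairs, by pool (x axis), with 95% Clopper-Pearson counting intervals. EEF1A1 per EEF1B2 rises from 1.26 in the free library to 5.97 in the monosome library and, by smaller steps, to 7.22 in the heavy polysome library. EEF1B2 per EEF1D falls from 11.2 in the monosome library to 1.70 in the heavy polysome library.

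Each member was next set against the other mRNAs. The log2 ratio of its shares in a pair of libraries was taken relative to the median of the 7527 tested genes, and calls of higher or lower needed a 2-fold distance from that median and an interval that left it out. Because most genes had a larger share in the later pools, the median gene itself rose in every comparison. The rise ran from 1.51-fold (heavy over light polysome) to 8.26-fold (heavy polysome over free), with 2.41-fold for monosome over free. A member can therefore have more CPM in a library and still lie below the median gene.

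In monosome against free, EEF1A1 and EEF2 were called higher and EEF1D lower, where 5.13% of tested genes were called higher and 4.57% lower. EEF1A1 lay at 1.60 (1.49 to 1.72), above 89.9% of tested genes, and EEF2 at 1.76 (1.33 to 2.25), above 91.3%. EEF1B2 lay at -0.64 (-0.77 to -0.50) and was not called. EEF1D lay at -1.07 (-1.46 to -0.65), and its call was lost under 8 of the 9 alternatives tried, for example at -0.72 with a pseudocount of 1.

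In light polysome against free, EEF2 was called higher, at 1.35 (0.93 to 1.85), and EEF1B2 and EEF1D lower, at -3.00 (-3.15 to -2.85) and -1.99 (-2.37 to -1.57). The background was 7.93% called higher and 8.73% lower, and 2.83% of tested genes lay below EEF1B2. The EEF1D call was lost without ribosomal protein reads in the totals, at -0.68. By library totals alone both lower calls were lost, with EEF1B2 at -0.73 and EEF1D at 0.28. EEF1A1 lay at -0.52 (-0.63 to -0.41), not called. In CPM, EEF1A1 was 3.36-fold and EEF2 12.5-fold higher in the light polysome library, EEF1D 1.22-fold higher and EEF1B2 at 0.602 of its free level.

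In heavy polysome against free, EEF1B2 and EEF1D were called lower, where 15.3% of tested genes were called lower and 6.36% higher. EEF1B2 lay at -3.51 (-3.65 to -3.36) and EEF1D at -1.22 (-1.57 to -0.82), and the EEF1D call was lost with TMM scaling and others given in the closing section. The EEF1B2 call was lost by library totals alone, at -0.46. EEF1A1, at -0.99 (-1.10 to -0.88), missed the 2-fold limit narrowly, and was called lower at -1.11 with a minimum of 100 counts. EEF2 lay at 0.23 with an interval of -0.20 to 0.72 that included the median gene. In CPM the heavy polysome level was 9.77-fold the free level for EEF2, 4.15-fold for EEF1A1, 3.58-fold for EEF1D and 0.726 for EEF1B2.

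The 3 comparisons with the free library depend on its 355509 counts, where 2348 of the tested genes had no count and the median gene moves with the value such genes are given. When they were set at 3 counts, the value of every member moved up by 0.71 in monosome against free, 0.85 in light polysome against free and 1.06 in heavy polysome against free. EEF1A1 then changed side in both polysome comparisons, to 0.33 and 0.07, EEF1B2 in monosome against free, to 0.07, and EEF2 was called higher in heavy polysome against free at 1.29. In the polysome comparisons EEF1B2 was still called lower, at -2.15 and -2.45.

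The 3 comparisons among ribosome-bearing pools do not have that limit, since at most 39 tested genes lacked a count in any of those libraries. In light polysome against monosome, EEF1A1 at -2.11 (-2.14 to -2.07) and EEF1B2 at -2.35 (-2.44 to -2.25) were called lower, where 16.3% of tested genes were called lower and 14.9% higher. Only 4.03% and 2.71% of tested genes lay below them. EEF1D at -0.90 (-1.13 to -0.66) and EEF2 at -0.39 (-0.49 to -0.29) were not called.

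In heavy polysome against monosome, EEF1A1 at -2.56 (-2.59 to -2.53), EEF1B2 at -2.83 (-2.92 to -2.75) and EEF2 at -1.49 (-1.60 to -1.39) were called lower. Such calls were common in this comparison, with 27.0% of tested genes lower and 21.0% higher. The EEF2 call was lost without ribosomal protein reads in the totals, at -0.59. By library totals alone the EEF1A1 call was lost too, at -0.82, and EEF2 turned to 0.25. EEF1D lay at the median gene, at -0.11 (-0.30 to 0.09). In CPM, EEF1D was 3.10-fold and EEF2 1.19-fold higher in the heavy polysome library, while EEF1A1 and EEF1B2 stood at 0.567 and 0.469 of their monosome levels.

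In heavy against light polysome no member was called, where 26.0% of tested genes were called higher and 28.3% lower. EEF1D lay at 0.96 (0.78 to 1.14) and EEF2 at -0.94 (-1.03 to -0.85), both just inside the 2-fold limit and on opposite sides of the median gene. With TMM scaling EEF1D passed that limit, at 1.02. EEF1A1 lay at -0.29 (-0.32 to -0.25) and EEF1B2 at -0.32 (-0.42 to -0.22), and their intervals overlapped.

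**Figure D3:**
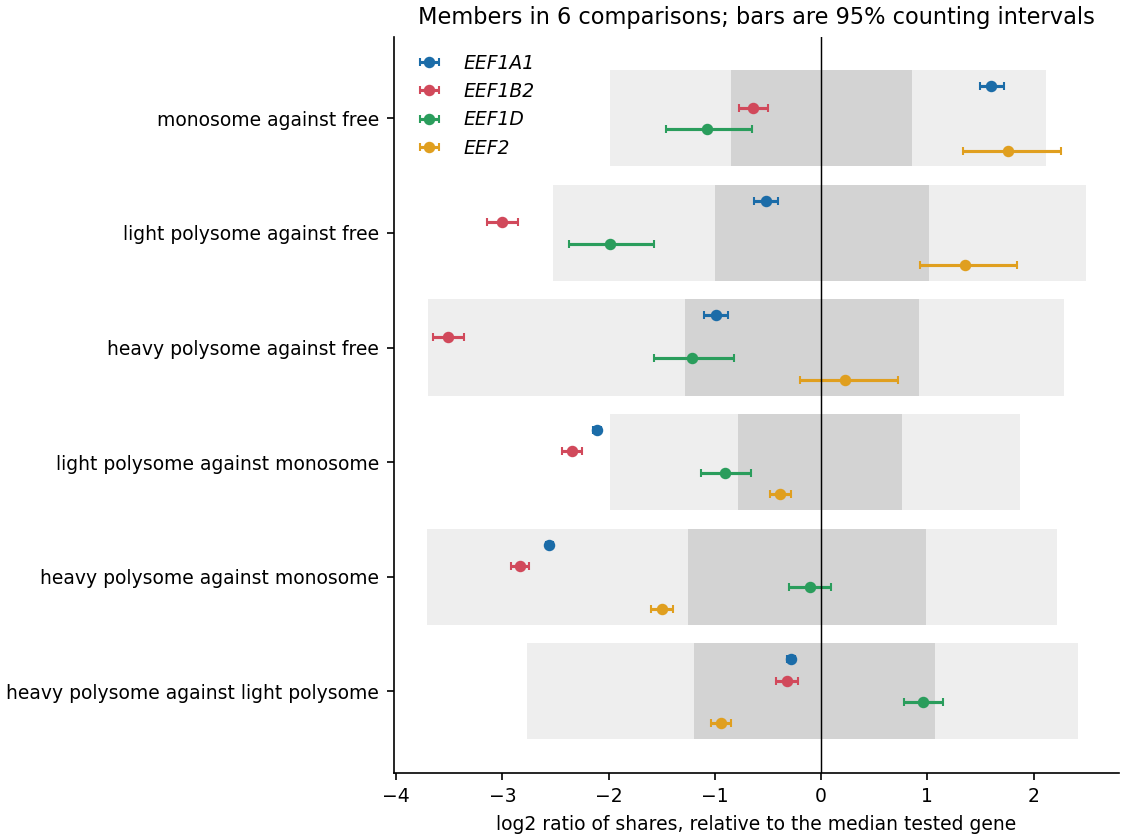
Log2 ratio of shares relative to the median tested gene (x axis, 0 is the median gene) for the 4 members in 6 comparisons (y axis), with 95% counting intervals. Dark grey bands hold the middle 50% of tested genes and light grey bands the middle 90%. EEF1A1 and EEF2 lie together in monosome against free at 1.60 and 1.76, while EEF1A1 lies with EEF1B2 in light polysome against monosome at -2.11 and -2.35.

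The balance of these background calls depends on the centre chosen. In heavy polysome against free, 479 genes were higher and 1152 lower around the median gene, against 5458 and 227 by library totals alone, 3117 and 465 with ribosomal protein genes left out of the totals, 931 and 943 with TMM, and 795 and 992 with DESeq2's size factors. In light polysome against free, the main split of 597 and 657 became 4285 and 66 by totals, 2336 and 186 without ribosomal protein genes and 808 and 538 with TMM. For monosome against free, 386 and 344 became 2048 and 60 by totals, 1414 and 106 without ribosomal protein genes and 551 and 248 with TMM. Among the ribosome-bearing pools, totals alone gave 3310 and 278 in place of 1125 and 1226 (light polysome against monosome), 4878 and 741 in place of 1583 and 2031 (heavy polysome against monosome) and 2958 and 1349 in place of 1959 and 2131 (heavy against light polysome). Leaving out ribosomal protein genes gave 1839 and 729, 3376 and 1254, and 2547 and 1641 in these comparisons.

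A mean position in the gradient, from 0 (all CPM in the free library) to 3 (all in the heavy polysome library) with monosome at 1 and light polysome at 2, was 1.27 for EEF1B2 (1.24 to 1.30), 1.67 for EEF1A1 (1.66 to 1.68), 1.99 for EEF2 (1.96 to 2.01) and 2.06 for EEF1D (1.98 to 2.14). The median tested gene stood at 2.25, with the middle 50% from 1.95 to 2.47. EEF2 and EEF1D, neighbours in this order, did not differ beyond counting error, and their order turned with TMM, with size factors and without ribosomal protein genes. All 4 members lay below the median gene, with 3.15% of tested genes below EEF1B2, 12.2% below EEF1A1, 27.6% below EEF2 and 33.0% below EEF1D.

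Among mRNAs of the TOP class, the 29 tested small-subunit ribosomal protein genes had a median position of 1.16 (range 0.506 to 1.74) and the 44 tested large-subunit genes one of 1.28 (0.298 to 2.05). EEF1B2 lay inside both ranges and EEF1A1 too, while EEF2 and EEF1D were above the small-subunit range. EEF1D, at 2.06, did not differ beyond counting error from the top of the large-subunit range. The 15 other non-ribosomal TOP mRNAs ranged from 0.533 for TPT1 to 2.67 for NPM1, with a median of 1.77. In light polysome against monosome, where the members had a median of -1.50, the medians were -1.79 for small-subunit genes, -1.56 for large-subunit genes and -1.70 for the other TOP mRNAs. In heavy against light polysome they were -0.30 for the members, -1.56, -1.28 and 0.28. With 1 library per pool these differences could not be tested.

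The genes with the most similar profile were found among 2783 genes with at least 200 counts, by how little their shares of summed CPM over the 4 libraries differed (0 for identical, 1 for no overlap). For EEF1A1 they were RPS3A at 0.0192, C18orf21, RPL4, RPL13A and EIF4B at 0.0613. RPS3A, a small-subunit protein gene, had 305, 8756, 5034 and 5797 counts. For EEF1B2 they included RPS6 at 0.0269, IFT22, PPP2R5C and RPS27A at 0.0684, and RPS6 had 2012, 11250, 5193 and 7502 counts.

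For EEF1D the nearest were RBM39 at 0.0317, BCAS2, TUBA1C, TUBA1B and FAM49B at 0.0459, of which TUBA1C and TUBA1B code for alpha tubulins. For EEF2 they were BCAT2 at 0.0163, FTSJ1, PROSER1, PPP2R2D and POP5 at 0.0370. No ribosomal protein gene was among the nearest 5 of EEF1D or EEF2. The neighbours of EEF2 had 0 to 9 counts in the free library. The distance between members themselves was smallest for EEF1A1 and EEF1B2 at 0.195 and largest for EEF1B2 and EEF2 at 0.364.

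Coding length was set beside the members' ratios. Over 7458 tested genes with an annotated coding length, the heavy to light polysome ratio had a median of -1.59 up to 600 nucleotides, 0.12 over 600 and up to 1200, 0.64 up to 1800, 0.52 up to 2400 and 0.07 above 2400. EEF2, in the longest class, lay at -0.94, below that class's lower quartile of -0.77. EEF1A1 lay at -0.29 in a class whose middle 50% ran from -0.56 to 1.55, and EEF1B2 at -0.32 in one that ran from -1.01 to 1.14. The EEF1D isoforms span all but the longest class, so it was not placed.

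**Figure D4:**
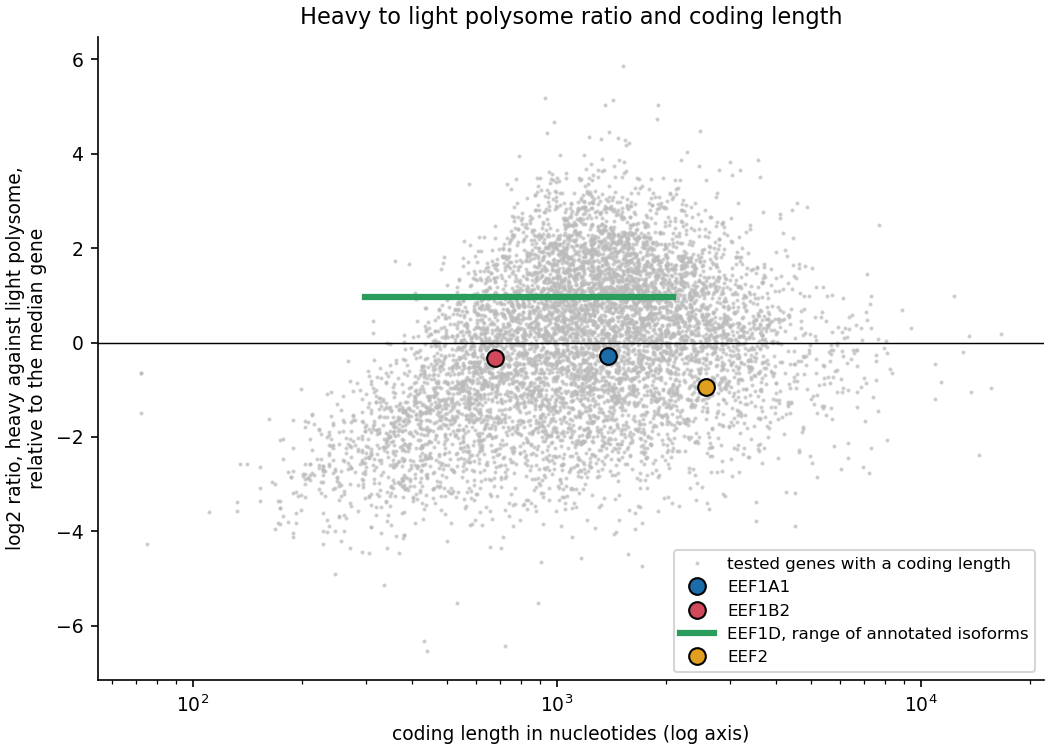
Log2 ratio of heavy to light polysome shares relative to the median gene (y axis) against coding length in nucleotides (x axis, log scale) for 7458 tested genes in grey and the members in colour, with EEF1D drawn as a line over its annotated isoforms from 297 to 2091 nucleotides. EEF2 is the longest of the members drawn as points and lies lowest, at -0.94.

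The partners of eEF1A were sparsely counted. EEF1A2, the paralogue found in neurons and muscle, had 1, 9, 36 and 162 counts from free to heavy polysome, and lay at 2.12 in heavy polysome against monosome (1.23 to 3.35), where EEF1A1 lay at -2.56. EEF1G, the structural subunit, is listed at 0 in all 4 libraries. Its exons overlap those of a second protein-coding annotation on the same strand, and whether the counting removed EEF1G reads was not tested. VARS, the valyl-tRNA synthetase bound to eEF1B, had 1, 9, 41 and 50 counts and was called in neither heavy polysome comparison among ribosome-bearing pools. EEF1E1, a synthetase-complex scaffold named after these factors, had 2, 15, 17 and 8 counts and was called lower in both heavy polysome comparisons among ribosome-bearing pools.

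A list of 37 other elongation and termination genes in the table had 28 tested members. In heavy against light polysome 13 of them were called higher and 7 lower, with a median of 0.77, and in heavy polysome against monosome 9 and 7, with a median of 0.38. Between monosome and light polysome, 2 were called higher and 6 lower, with a median of -0.15. These lists were chosen with earlier results of the data known, and the shares called among all tested genes are those given above.

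The termination and rescue GTPases and their partners stood at the heavy end. Of 7 tested, 6 were called higher in heavy against light polysome, with a median of 1.27 and the group's position between 2.36 and 2.59. ABCE1, which splits ribosomes after termination, had 3, 16, 11 and 171 counts and lay at 3.25 (2.43 to 4.34). GSPT1 (eRF3) lay at 2.22 (1.69 to 2.83) and ETF1 (eRF1, which reads stop codons) at 1.23 (0.91 to 1.57). GTPBP1 was the lowest, at 0.62. Between monosome and light polysome the group had a median of -0.90, with 3 called lower and none higher, where 16.3% of tested genes were called lower. In heavy polysome against monosome its median was 0.40, with 2 called higher and none lower, where 21.0% of tested genes were called higher.

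Mitochondrial factors were toward the heavy end, with all 3 tested called higher in heavy against light polysome and in heavy polysome against monosome. Among all tested genes 26.0% and 21.0% were called higher there. TUFM had 13, 77, 193 and 1248 counts, with 2.04 (1.82 to 2.27) and 2.03 (1.71 to 2.39) in these comparisons. The pair EEF1A1 and TUFM, which do the same task in the cytosol and the mitochondrion, thus lay on opposite sides of the median gene in both. In heavy against light polysome, though, EEF1A1 was near that median, at -0.29 and not called. By library totals alone it turned to 0.31. Selenocysteine elongation was represented by EEFSEC, with 55 counts in the heavy polysomes against 16 in the light, called higher at 1.10, and SECISBP2 at -0.55, not called.

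Genes that modify eEF2 were spread widely. Of 8 tested, 1 was called higher and 4 lower in heavy against light polysome. The shares among all tested genes were 26.0% higher and 28.3% lower, and the difference from them was not tested. DPH3, a small electron donor in diphthamide synthesis, had 16, 192, 164 and 30 counts and lay at -3.08 (-3.72 to -2.53), and DPH2, a subunit of the enzyme of the first step, at -2.15 (-2.41 to -1.89). DPH5, the methyltransferase of that pathway, lay at 0.78 and was not called. DPH6, with 4 counts in the light polysome library, was called higher at 2.52 (1.20 to 4.61). EEF2K itself had 37 counts in all and was not called in any comparison among ribosome-bearing pools.

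Of the eEF1A methyltransferases only 2 of 5 had enough counts. EEF1AKNMT had 0, 13, 50 and 168 counts and was called higher in heavy against light polysome at 1.09 (0.63 to 1.58), and EEF1AKMT1 was called lower at -1.98 (-2.65 to -1.37). EIF5A, which helps ribosomes past difficult peptide bonds once it carries hypusine, had 72, 326, 3001 and 3591 counts. It lay at 2.04 in light polysome against monosome (1.88 to 2.21), opposite to EEF1A1 and EEF1B2. Its near-identical copy EIF5AL1 had 65, 310, 2893 and 3492 counts, so reads of these copies may have been counted for both, and the EIF5A values are uncertain for that reason. DOHH, which completes hypusine, lay at 3.13 in the same comparison (2.21 to 4.45), with 166 counts against 8. The paralogue EIF5A2, with 68 counts in all, went the other way. It lay at -0.48 there, not called, and was called lower in heavy polysome against monosome, at -1.76.

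**Figure D5:**
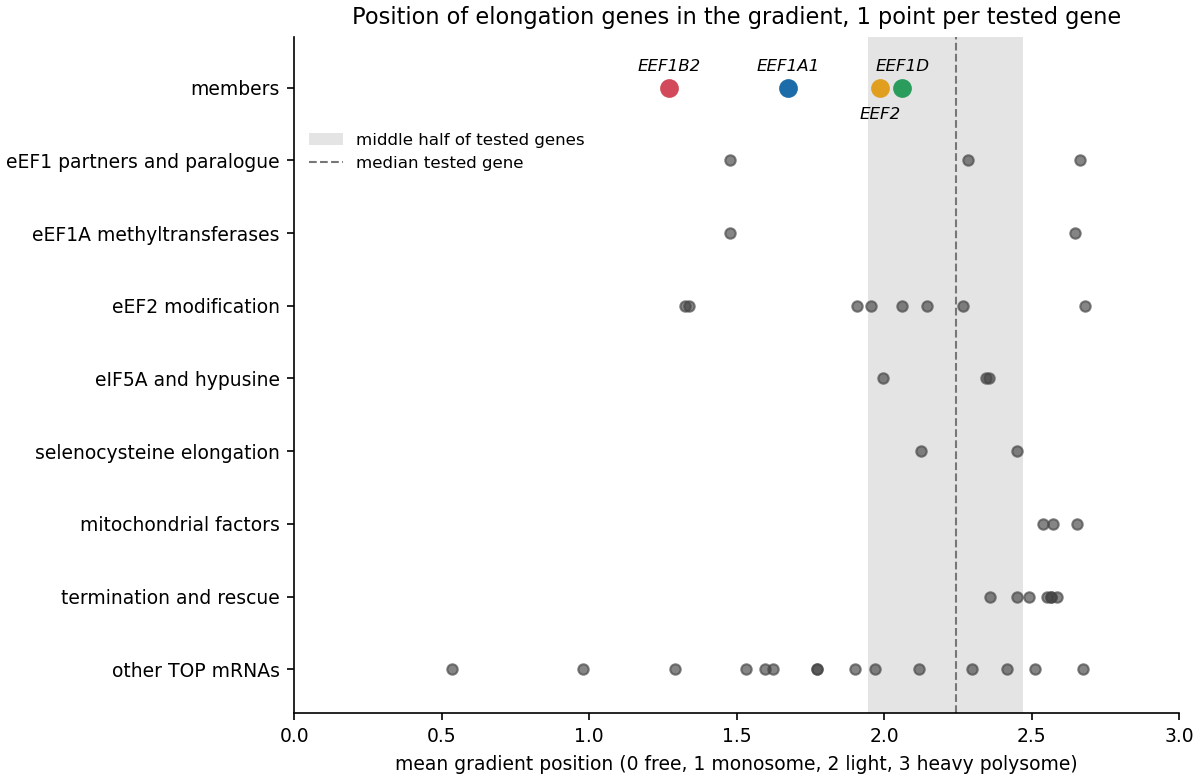
Mean gradient position (x axis, 0 for free to 3 for heavy polysome, from CPM) of the members and of every tested gene in 8 lists (y axis), 1 point per gene. The grey band holds the middle 50% of the 7527 tested genes and the dashed line marks their median at 2.25; the members lie between 1.27 and 2.06, and termination and rescue genes between 2.36 and 2.59.

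Reads from copies limit some member values. GENCODE release 29 names 39 pseudogenes after EEF1A1, 8 after EEF1B2, 8 after EEF1D and none after EEF2, and how reads that align to several places were treated was not given. An exon of EEF1B2 overlaps NDUFS1 on the other strand, which had 2, 15, 24 and 37 counts, and one of EEF1D overlaps TIGD5, with 0, 6, 37 and 50 counts. On the same strand, EEF1B2 exons overlap SNORA41 and RF02271, and EEF2 exons overlap SNORD37. On the other strand, EEF1A1 overlaps AL121972.1, and EEF1D also overlaps AC067930.2 and AC067930.6. The part of these overlaps in the member counts was not tested.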

How the data were processed

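The members, gene lists and comparisons were chosen with earlier results of these data known. The authors deposited raw counts per gene for the 4 libraries, and no other column was in the table (0 unused). The submitters' processing notes name hg38, minimap2 2.15 and featureCounts from Subread 1.6.2. They do not give the annotation release, the use of strand or the treatment of multiply aligned reads. Capped RNA was bound with a mutant of eIF4E before sequencing, per the labels' protocols, and direct RNA reading involves no amplification.

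From the counts, CPM used library totals, with exact Poisson intervals. Log2 ratios used a pseudocount of 0.5 and a minimum of 30 counts over the 4 libraries, were centred on the median tested gene, and have exact conditional binomial (Clopper-Pearson) intervals. Ratios of pairs have exact conditional intervals of the 2 by 2 table. Intervals cover counting error only. With 1 library per pool no replicate test could be fitted, so no p-value was computed with edgeR or DESeq2. The code was tested on simulated data. Coding lengths are of GENCODE 29's principal isoform, else the longest, and starts come from RefSeq, which matched 3 of 4 members. Named genes are the members, their 5 nearest profiles (at least 200 counts) and, per list, the most counted member and the highest and lowest with at least 100 counts. EEF1E1, EEF1G, EEF2K, DPH6, SECISBP2, GSPT1, EIF5A2 and EIF5AL1 were named after their values were seen. A gene among the nearest profiles is not reported here. Position intervals use the normal approximation to counting error. Alternatives were library totals alone, TMM (edgeR 4.0.16), size factors (DESeq2 1.42.0), totals without ribosomal protein genes, minimum counts of 10, 100 or 1, a pseudocount of 1, other position weights and, added after seeing the data, genes without a count set at 3. Python 3.11.15, numpy 2.4.6, pandas 2.3.3, scipy 1.17.1, matplotlib 3.10.9 and R 4.3.3 were used.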

Additional observations from a re-analysis of the deposited data

How the results depend on the processing

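Values among the monosome and polysome libraries moved little with the minimum count of 10 or 100, the pseudocount and zeros at 3 counts, by at most 0.20 on the log2 scale; the free comparisons moved by up to 1.13 with no minimum. By library totals alone, EEF1D turned to 0.20, 0.28 and 1.83 in monosome, light and heavy polysome against free, and EEF2 to 0.25 in heavy polysome against monosome; without ribosomal protein genes in the totals EEF1D in heavy polysome against free turned to 0.63. Members not called in the main setting turned sign too. By totals alone EEF1A1 went to 1.75 and 2.05 in light and heavy polysome against free (called higher) and 0.31 in heavy against light polysome, EEF1B2 to 0.63 in monosome against free and 0.27 in heavy against light polysome, EEF2 to 0.60 in light polysome against monosome, and EEF1D to 0.08 and 1.63 in light and heavy polysome against monosome. Without ribosomal protein genes EEF1A1 went to 0.78, 0.85 and 0.06 in the same comparisons, EEF1B2 to 0.26 and 0.03, EEF2 to 0.00 and EEF1D to 0.80 in heavy polysome against monosome. That EEF1D value was also above 0 with TMM, size factors and no minimum (0.11, 0.11 and 0.28), and with no minimum EEF1A1 went to 0.36 and 0.14 against free and EEF1B2 to 0.06. A scaling shifts all genes of a comparison equally.

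Members called lower in monosome against free went from 1 to 0 under all alternatives except a minimum of 100. In light polysome against free, totals alone gave 2 higher and 0 lower, and totals without ribosomal protein genes 1 lower. In heavy polysome against free, totals alone gave 3 higher and 0 lower, TMM, size factors, a minimum of 10 and a pseudocount of 1 gave 1 lower, and no ribosomal protein genes, no minimum and zeros at 3 gave 1 higher and 1 lower, and a minimum of 100 gave 3 lower, with EEF1A1 at -1.11. In heavy polysome against monosome, totals alone gave 1 higher and 1 lower, and no ribosomal protein genes gave 2 lower, with EEF2 at -0.59. In heavy against light polysome, totals alone, TMM, no ribosomal protein genes, a minimum of 100 and no minimum gave 1 higher, which was EEF1D.

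Positions of EEF1A1, EEF1B2, EEF1D and EEF2 were 3.20, 2.36, 4.81 and 3.93 with weights 0, 1, 3 and 8; 1.20, 0.701, 1.21 and 1.55 with TMM; 1.18, 0.669, 1.16 and 1.54 with size factors; and 1.42, 0.979, 1.67 and 1.77 without ribosomal protein genes. EEF1B2 was lowest in each. No paired analysis was possible because each pool has 1 library, and for the same reason no replicate could be left out. Depth limits the free library, where EEF2 had 42 and EEF1D 64 counts.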
